A study of Homo sapiens with 72 samples.

Results

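The mRNAs of 9 AP-1 and immediate early genes were followed across 24 groups of the established human melanoma cell line A375. The 9 genes were the rows of the count table with the symbols JUN, JUNB, JUND, FOS, FOSL1, FOSL2, EGR1, IER2 and IER3, of 44659 gene names in all. Cytoplasmic RNA had been profiled by QuantSeq, which counts reads from the 3′ ends of polyadenylated mRNAs, in 72 libraries with 3 replicates per group. In the siRNA experiment, cells had received a pool of a pair of siRNAs against CTU2 (siCTU2) or the control siRNA GL2 (siGL2), and drug treatment began after 42 h. CTU2 encodes a subunit of an enzyme that thiolates the wobble uridine of some tRNAs. In the medium experiment, cells had been washed and given fresh medium without glutamine (mQ) or with it (pQ), and drug treatment began after 18 h. In each of these 4 conditions, cells received the transcription inhibitor triptolide at 25 µM. Cells of the TCHX arm also received the translation inhibitor cycloheximide at 100 µg/ml, and the T arm had triptolide only. The study describes the same assay on other samples with cycloheximide given shortly before triptolide, and the labels here give no order, so TCHX cells at 0 h may already have been exposed to it for some minutes. Cells were collected directly after the drugs were added (0 h) and after 3 h and 5 h. All groups therefore carried triptolide, and the 0 h libraries of both arms are the nearest to untreated cells. The study compared the arms and times to follow mRNA decay that depends on translation. The line is a single tumour line and nuclear RNA was removed, so values describe the cytoplasm only. No label says whether replicates were separate cultures, and p-values then measure the spread between these samples, which may be technical.

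AP-1 is a dimeric transcription factor made of basic leucine zipper proteins of the JUN and FOS families, which binds DNA elements known as TREs and CREs. Some genes of these families, and EGR1, IER2 and IER3, are switched on within minutes of a growth or stress signal without new protein synthesis. Most of their mRNAs are short-lived. AU-rich elements in 3′ untranslated regions (3′ UTRs), built from the pentamer ATTTA, and the translation of the mRNA itself are both known to take part in that short life. In melanoma cells such as A375 with an activated BRAF kinase, ERK signalling is known to feed these genes.

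Libraries held 5987692 to 15534331 counts. Levels are given as CPM, counts scaled to an equal library total, and changes over time were scaled to stable genes, those whose share of the library rose after the transcription block. CTU2 was at 0.133 to 2.95 CPM in the siCTU2 libraries and at 17.5 to 35.0 CPM in the siGL2 libraries, and the library labelled siCTU2 TCHX 5 h replicate 3 lay between these ranges, at 10.4 CPM. That library, mQ T 5 h replicate 3 and pQ TCHX 0 h replicate 3 stood apart, since 19896 to 20364 genes had counts there and 15507 to 17495 did in the other libraries. The summed CPM of 5 leukocyte markers was 64.1, 63.7 and 65.3 in these libraries, in that order, and at most 1.54 in any group without one of them. CD3E, a T cell gene, was at 0 counts in 67 libraries and reached 500 counts in mQ T 5 h replicate 3. Melanocyte lineage markers SOX10, MITF and S100B were present in all libraries, while MLANA and TYR were at 0 counts in 17 and 16 of them. Some results that rest on the libraries that stood apart, mainly those of mQ, are given with and without them. Most others are given with them only, including siCTU2 with cycloheximide at 5 h and pQ in the TCHX arm. So are the tests of the translation-dependent decay index and the likeness between genes. In bulk RNA, fewer cells with an mRNA and less mRNA per cell cannot be told apart.

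Of the 9 genes, 8 passed the filter on low counts in every comparison. IER3, which encodes a survival protein of the immediate early class, failed it in all of them and was not tested. IER3 had 62 counts over the 72 libraries, with at most 7 in any library. The table also held 5 extra names for copies of IER3 on alternative assemblies of its locus, and one of these had 329 counts, so reads of IER3 were divided among names and its level is uncertain. Summed over all its names, IER3 had 12, 10 and 7 counts in siCTU2 and 14, 22 and 14 in siGL2 at 0 h in the T arm, 28, 10 and 39 in mQ and 8, 10 and 7 in pQ. After 3 h of triptolide it had at most 2 counts in any of the 12 T arm libraries. These sums are given as a description only.

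JUN, JUNB and JUND are single-exon genes. In GENCODE v44 on GRCh38, JUN lies at chr1:58776845-58784048 on the minus strand, and EGR1 at chr5:138465479-138469303 on the plus strand. JUNB (chr19:12791486-12793315) overlaps HOOK2 on the opposite strand, FOSL2 (chr2:28392448-28417317) overlaps the antisense RNA FOSL2-AS1, and IER2 (chr19:13150411-13154911) overlaps antisense RNAs. Whether counting used strand is not given in the sources used here, so counts of these 3 genes could include reads of their neighbours.

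The 3′ UTRs of the canonical transcripts differed in the number of ATTTA pentamers, a sequence feature not used to choose the genes. The number of pentamers was 6 in IER3 and 5 in FOS, and 3.13% and 8.0% of 3′ UTRs within 20% of their lengths held at least as many. FOSL2, with a 3′ UTR of 4869 bases, had 9, JUN had 3, JUNB had 2, JUND, FOSL1 and EGR1 had 1 each, and IER2 had 0. Over 19538 3′ UTRs, 67.5% had at least 1. For JUN, JUNB, JUND, FOSL1, FOSL2 and EGR1, the share near their lengths with at least as many ran from 25.6% for JUNB to 80.4% for EGR1, with 59.5% for FOSL2. Of the 3′ UTRs near the length of IER2, 75.8% had at least 1. The longer motif TTATTTATT was found in FOS and FOSL2 only among the 9 genes, against 8.44% of all 3′ UTRs, 5.35% of those near the length of FOS and 21.2% of those near the length of FOSL2. A stretch of 30 bases around the densest pentamers is shown for the 4 genes with the most pentamers. Coordinates are on GRCh38, the sequences are in mRNA sense, and capitals mark ATTTA:
FOS (chr14:75282058-75282087, plus strand): tgtgtttttaATTTATTTAttaagatggat
FOSL2 (chr2:28416349-28416378, plus strand): attgacATTTAttttattATTTAttttaaa
IER3 (chr6:30743648-30743677, minus strand): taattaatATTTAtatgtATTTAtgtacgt
JUN (chr1:58781336-58781365, minus strand): ttccagaaaggatATTTAagaaaatacaat

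Promoter sequences, from 250 bases before to 50 after the start, were matched in RefSeq (GRCh38.p14) for 7 of the 9 genes. 6 motifs were searched for on both strands: the CArG box bound by serum response factor, the CRE (TGACGTCA), the TRE (TGACTCA or TGAGTCA), the AP-1-like octamer known from the JUN promoter (TGACATCA), the core of the CRE (TGACG) and a TATA motif (TATAAA or TATATA). The octamer was added after the JUN sequence had been seen. The core was found in all 7 promoters, against 24.6% of 35116 promoters, and a CRE always holds it. The TATA motif was found in JUNB and FOS, against 13.7%. EGR1 had 2 CArG boxes, 105 to 96 and 83 to 74 bases before the start, and 1.29% of promoters held at least 1. JUND had a CRE, present in 1.85% of promoters, FOSL2 a TRE, present in 4.95%, and JUN the octamer, present in 2.61%. JUNB, FOS and IER2 had none of these last 4 motifs in the window. The windows that hold 1 of these 4 are printed to show where the longer elements lie, and no relation of the matches to the levels was tested. The core is not marked. Capitals mark the matches:
JUN promoter (chr1:58783998-58784297, minus strand): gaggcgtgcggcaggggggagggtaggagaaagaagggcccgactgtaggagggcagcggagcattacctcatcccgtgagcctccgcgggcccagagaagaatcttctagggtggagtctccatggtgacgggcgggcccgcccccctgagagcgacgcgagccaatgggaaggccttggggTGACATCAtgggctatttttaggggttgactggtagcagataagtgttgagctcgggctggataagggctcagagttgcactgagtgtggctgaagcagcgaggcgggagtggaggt
EGR1 promoter (chr5:138465229-138465528, plus strand): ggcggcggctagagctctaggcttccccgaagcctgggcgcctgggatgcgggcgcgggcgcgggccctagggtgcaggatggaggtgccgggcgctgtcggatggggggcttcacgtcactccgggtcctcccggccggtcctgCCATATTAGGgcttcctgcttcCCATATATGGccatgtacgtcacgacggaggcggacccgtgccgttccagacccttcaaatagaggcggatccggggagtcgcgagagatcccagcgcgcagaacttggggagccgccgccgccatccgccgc
JUND promoter (chr19:18281573-18281872, minus strand): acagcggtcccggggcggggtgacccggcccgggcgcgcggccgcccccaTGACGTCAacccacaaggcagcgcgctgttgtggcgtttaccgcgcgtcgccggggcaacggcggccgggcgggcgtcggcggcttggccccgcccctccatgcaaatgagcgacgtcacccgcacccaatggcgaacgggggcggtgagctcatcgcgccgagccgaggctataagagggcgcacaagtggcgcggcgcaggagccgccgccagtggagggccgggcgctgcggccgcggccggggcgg
FOSL2 promoter (chr2:28392608-28392907, plus strand): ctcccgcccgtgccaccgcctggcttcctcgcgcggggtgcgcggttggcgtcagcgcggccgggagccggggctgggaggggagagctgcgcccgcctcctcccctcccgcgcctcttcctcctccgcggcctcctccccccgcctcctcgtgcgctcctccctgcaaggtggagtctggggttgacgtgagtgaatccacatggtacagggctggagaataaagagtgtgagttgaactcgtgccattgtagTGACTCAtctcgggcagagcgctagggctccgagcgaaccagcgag

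The first comparison asked how the genes differed between siCTU2 and siGL2 before decay began. At 0 h in the T arm, 7 of the 8 genes tested were higher in siCTU2 and none was lower, while 36% of the 12292 genes tested were called in either direction. The median log2 difference was 0.89 over the 8 genes and 0.00478 over all genes tested. Tests were edgeR's quasi-likelihood test with Benjamini-Hochberg adjustment over all genes tested, here and below unless another is named. They had no replicate term and are unpaired.

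JUN, the core JUN family subunit, stood at 82.2, 85.9 and 63.1 CPM in siCTU2 and at 21.4, 32.9 and 21.0 CPM in siGL2. All siCTU2 values lay above all siGL2 values, by 1.61 on the log2 scale (SE 0.16, edgeR adjusted p = 2.5e-07). JUND, a JUN family member that is usually present in resting cells too, was at 51.2, 61.2 and 57.5 CPM against 30.1, 28.1 and 23.6 CPM. It was higher by 1.05 (SE 0.12, adjusted p = 2.1e-06), again without overlap. JUNB, the third member of the family, differed less, at 48.3, 49.0 and 48.7 CPM against 35.8, 36.5 and 38.0 CPM. Its groups did not overlap either, and the log2 difference was 0.40 (SE 0.10, adjusted p = 0.0056).

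Among the FOS family, which needs a JUN partner to bind DNA, FOSL2 and FOSL1 were higher in siCTU2 and FOS was not called. FOSL2 stood at 23.9, 25.7 and 16.7 CPM against 10.3, 13.4 and 7.90 CPM, a log2 difference of 1.06 (SE 0.20, adjusted p = 0.00051). FOSL1, which encodes FRA1, stood at 200, 191 and 160 CPM against 123, 147 and 116 CPM, a difference of 0.51 (SE 0.10, adjusted p = 0.00053). FOS itself was at 8.01, 8.94 and 7.08 CPM in siCTU2 and at 9.82, 8.25 and 8.52 CPM in siGL2, values that overlap, with a log2 difference of -0.15 (SE 0.21, adjusted p = 0.62). In the TCHX arm at 0 h, where cycloheximide had just been added, FOS was lower in siCTU2, with a difference of -0.77 (adjusted p = 0.020). With both arms fitted together the difference was -0.45 (adjusted p = 0.028). That fit counted the T and TCHX libraries of a replicate as separate samples, without a replicate term, so its adjusted p may be too small. The 7 other genes were higher in siCTU2 in the TCHX arm as well, by 0.51 for FOSL1 to 1.62 for JUN on the log2 scale.

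EGR1, a zinc finger transcription factor that responds to ERK signalling, stood at 89.1, 102 and 76.2 CPM in siCTU2 against 33.4, 45.9 and 27.3 CPM in siGL2. The groups did not overlap, and the log2 difference was 1.32 (SE 0.15, adjusted p = 1.6e-06). IER2, a small nuclear protein gene of the same response class, was at 163, 187 and 157 CPM against 91.7, 112 and 102 CPM, a difference of 0.73 (SE 0.09, adjusted p = 5.4e-06). The levels at 0 h are drawn gene by gene for the 4 conditions.

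**Figure D1:**
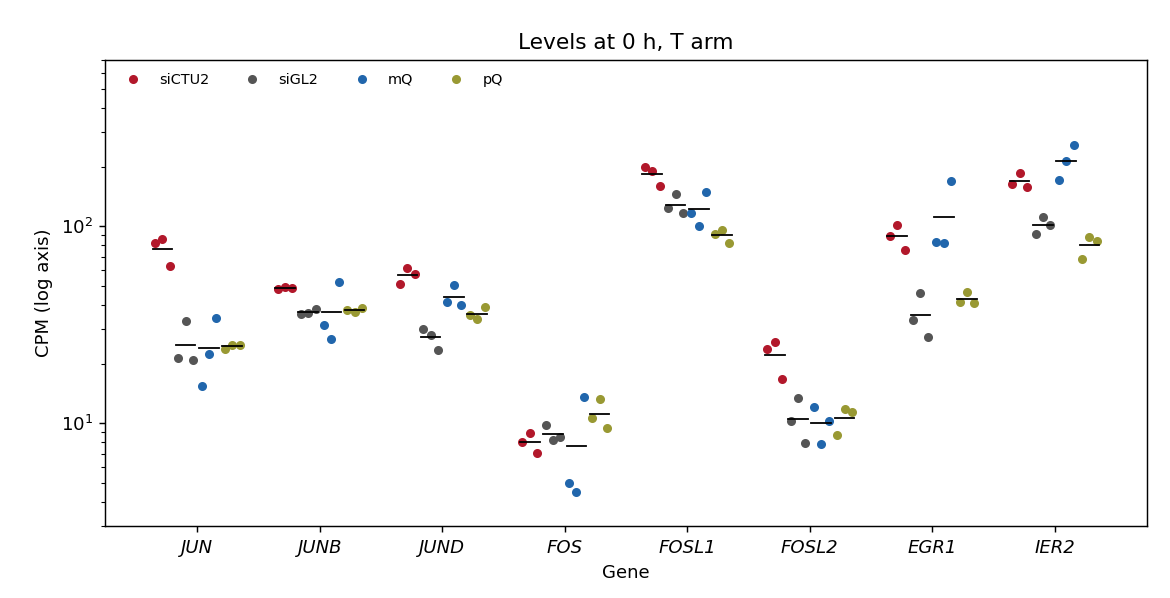
CPM at 0 h in the T arm (log axis) of the 8 genes tested, for siCTU2, siGL2, mQ and pQ, with a point per library (n = 3) and a line at the mean. All JUN, JUND, FOSL2 and EGR1 points of siCTU2 lie above those of siGL2, while FOS points of the 2 conditions overlap, and IER2 points of mQ lie above those of pQ.

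In the medium experiment, mQ had higher levels than pQ of 3 of the 8 genes at 0 h and lower levels of none, against 24.8% of the 12374 genes tested that were called in either direction. IER2 stood at 172, 213 and 259 CPM in mQ and at 68.4, 88.2 and 84.0 CPM in pQ, without overlap, a log2 difference of 1.48 (SE 0.16, adjusted p = 9.7e-05). EGR1 stood at 83.2, 81.8 and 170 CPM against 41.3, 46.4 and 40.6 CPM, a difference of 1.44 (SE 0.24, adjusted p = 0.0018). Replicate 3 of mQ was the highest of its group for EGR1, IER2, JUN, JUNB, FOS and FOSL1. FOSL1 was at 117, 101 and 149 CPM against 91.2, 95.9 and 82.2 CPM, a difference of 0.50 (SE 0.14, adjusted p = 0.024), which missed the threshold without either mQ replicate 1 or 3 or without any of the pQ replicates, with adjusted p from 0.058 to 0.090.

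The JUN family was not called between mQ and pQ. JUN stood at 15.5, 22.5 and 34.4 CPM in mQ and at 23.9, 25.0 and 24.8 CPM in pQ, with overlapping values and a log2 difference of 0.03 (SE 0.23, adjusted p = 0.94). JUNB differed by 0.02 (SE 0.21, adjusted p = 0.96), JUND by 0.34 (SE 0.14, adjusted p = 0.090) and FOSL2 by -0.04 (SE 0.23, adjusted p = 0.91). FOS, at 4.95, 4.47 and 13.6 CPM in mQ against 10.6, 13.3 and 9.49 CPM in pQ, differed by -0.48 (SE 0.37, adjusted p = 0.36), and by -1.19 (adjusted p = 0.0067) without mQ replicate 3.

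Of 5 wider lists of related genes, 4 had genes called in both directions at 0 h, and the AP-1 target genes were called higher only. Counted in either direction, as for the 36% of all genes tested, the calls were 10 of 18 other immediate early genes, 4 of 8 AU-rich element binders, 10 of 15 AP-1 target genes, 5 of 10 other AP-1 and small MAF subunits and 7 of 17 upstream factors and kinases. Of 18 tested of 20 other immediate early genes, 7 were higher and 3 lower in siCTU2, with a median log2 difference of 0.22. Among the higher were BTG2, an antiproliferative gene, at 2.06, and CCN1, a matricellular protein gene, at 1.86, both log2 differences. Of 8 AU-rich element binders, 1 was higher and 3 were lower, among them ZFP36L1, which recruits deadenylases to such mRNAs, at -1.03 (adjusted p = 1.2e-08). Of 20 AP-1 target genes, 15 were tested, of which 10 were higher in siCTU2 and 0 lower, with a median of 0.94. These included HMOX1, the haem-degrading oxygenase, at 3.05, PLAUR, the urokinase receptor, at 1.61, and SPP1, which encodes osteopontin, at 1.68. Of 10 tested of 13 other AP-1 and small MAF subunits, 3 were higher and 2 lower, with ATF3, a stress-induced CREB family gene, at 1.09 (SE 0.23, adjusted p = 0.0011) and JDP2, which encodes a JUN partner, at -4.46 (SE 0.83, adjusted p = 0.00034). Among 17 upstream factors and kinases tested, 4 were higher and 3 lower, with SRF, which binds CArG boxes, at 0.71 (adjusted p = 4.5e-06) and its partner gene ELK3 at -2.45 (adjusted p = 6.8e-12).

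Between mQ and pQ, 6 of 19 other immediate early genes tested were higher in mQ and 1 was lower, with a median log2 difference of 0.20. ATF3 differed by 3.00 (SE 0.21, adjusted p = 4.5e-06) and JDP2 by 4.18 (SE 0.30, adjusted p = 4.5e-06), both higher in mQ, among 3 higher and 1 lower of 11 AP-1 and small MAF subunits tested. Of 15 AP-1 target genes tested, 4 were higher and 1 lower, and SPP1 differed by -1.06 (adjusted p = 0.00034). The upstream list had 1 higher, RPS6KA2, a kinase downstream of ERK, at 1.85 (adjusted p = 4.5e-06), and 4 lower of 17 tested. Of the 8 AU-rich element binders, 1 was higher, ZFP36L1 at 0.77 (adjusted p = 0.0055), and 3 were lower. The share of all genes tested called in either direction was 24.8%, and in the lists 7 of 19, 4 of 11, 5 of 15, 5 of 17 and 4 of 8 were called, in the order given.

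The next question was how fast the mRNAs were lost once transcription was blocked. After 3 h in the T arm, 7 of the 8 genes were lower than at 0 h in siCTU2, 7 in siGL2, 8 in mQ and 7 in pQ, and the share of all genes tested that was lower was 36%, 28.6%, 55.4% and 55.2%. The exception in siCTU2, siGL2 and pQ was JUND. The median log2 change of the 8 genes was -2.53, -2.69, -3.66 and -3.46, against -0.55, -0.47, -0.71 and -0.69 over all genes tested. The remaining mRNA is given below as the normalised count of each library in percent of the mean of the 3 libraries of its condition and arm at 0 h. The median expressed gene had 67.6% ± 2.73 (SD, n = 3) left in siCTU2 and 71.5% ± 3.79 in siGL2 by that measure.

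By the mean of its 3 libraries, JUN had the least mRNA left of the 8 genes in siCTU2, siGL2 and mQ. In siGL2, 2.87%, 5.58% and 2.63% of the 0 h level was left at 3 h, and in siCTU2 1.84%, 3.75% and 3.15%. The conditions overlapped, although JUN had started at the higher level in siCTU2. The log2 change was -4.74 (SE 0.54, adjusted p = 9.7e-06) in siGL2 and -5.10 (SE 0.50, adjusted p = 3e-06) in siCTU2. In raw counts, JUN went from 185, 291 and 170 to 9, 16 and 7 in siGL2, so the remainder rests on few reads. In mQ, 2.67%, 1.65% and 2.50% was left and in pQ 7.80%, 3.01% and 2.71%.

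JUNB and IER2 followed closely. JUNB had 4.81%, 5.74% and 4.37% left in siGL2, and 7.15%, 19.4% and 10.4% in siCTU2, without overlap. IER2 had 5.05%, 8.20% and 7.61% left in siGL2 and 11.2%, 14.4% and 10.2% in siCTU2, also without overlap. In neither gene did the log2 change differ between the conditions by the interaction test described below. In mQ, IER2 had 2.15%, 2.43% and 3.58% left, and in pQ 4.69%, 9.01% and 9.11%.

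FOS had 7.25%, 9.92% and 14.9% left in siGL2 and 13.7%, 9.70% and 16.4% in siCTU2 at 3 h, at counts between 8 and 26. FOSL1, FOSL2 and EGR1 were lost more slowly than JUN in all 4 conditions by their means. In siGL2, 21.0%, 39.7% and 8.72% of FOSL1, 27.3%, 27.4% and 15.2% of FOSL2 and 18.9%, 34.5% and 14.0% of EGR1 was left. Without replicate 1, the loss of FOSL1 missed the threshold in siCTU2 and siGL2 (adjusted p = 0.068 and 0.15), and that of FOSL2 in siCTU2 and mQ (adjusted p = 0.075 and 0.052). EGR1 was lower in mQ, at 5.70%, 8.10% and 7.91%, and in pQ, at 11%, 14.0% and 7.63%. The difference between the experiments was not tested, since each was scaled to its own stable genes.

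JUND was the most stable of the 8 mRNAs. At 3 h, 53.5%, 42.8% and 58.8% was left in siGL2, 64.6%, 62.8% and 80.2% in siCTU2, 36.3%, 27.6% and 31.2% in mQ and 49.2%, 51.3% and 54.7% in pQ. The log2 change was -0.95 (SE 0.46, adjusted p = 0.13) in siGL2, -0.53 (SE 0.25, adjusted p = 0.094) in siCTU2, -0.95 (SE 0.41, adjusted p = 0.055) in pQ and -1.66 (SE 0.50, adjusted p = 0.011) in mQ, where it was -1.46 (adjusted p = 0.13) without replicate 2. With TMM scaling in place of stable genes, JUND in siCTU2 stood 0.02 above 0 h at 3 h and 0.26 above it at 5 h (adjusted p = 0.99 and 0.62), so its direction there depended on the scaling.

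Of the other immediate early genes at 3 h in the T arm, 16 of 19 tested were lower in siCTU2, 13 of 18 in siGL2, 18 of 19 in mQ and 18 of 19 in pQ, with median log2 changes of -2.74, -3.29, -3.88 and -3.38. Of the AP-1 target genes, 4 of 16, 3 of 16, 7 of 15 and 10 of 15 were lower, with medians of -0.45, -0.54, -0.69 and -0.78. The shares of all genes tested that were lower were 36%, 28.6%, 55.4% and 55.2%.

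The mRNA left at 3 h in siGL2 is set here beside the pentamers of the 3′ UTR. FOS, with 5 pentamers (6.20 per kb), had 10.7% ± 3.90 (SD, n = 3) left, JUNB, with 2 (4.00 per kb), had 4.97% ± 0.699, and JUN, with 3 (2.34 per kb), had 3.69% ± 1.64. FOSL2, with 9 (1.85 per kb), had 23.3% ± 7.02 left, JUND, with 1 (1.34 per kb), 51.7% ± 8.16, FOSL1, with 1 (1.19 per kb), 23.1% ± 15.6, and EGR1, with 1 (0.818 per kb), 22.5% ± 10.7. By density, the means of the 3 genes with the most pentamers per kb were thus below those of the next 4. Single libraries overlapped, with up to 14.9% for FOS and down to 8.72% for FOSL1 and 14.0% for EGR1. IER2, with 0 pentamers, had 6.95% ± 1.68 left, a mean below that of FOS. The same order of means by density was seen in siCTU2 and pQ at 3 h, but not in mQ. There, FOS had a mean of 8.52% left and EGR1 7.24%. These are 8 genes and are given as a description, and no relation to the pentamers was tested.

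**Figure D2:**
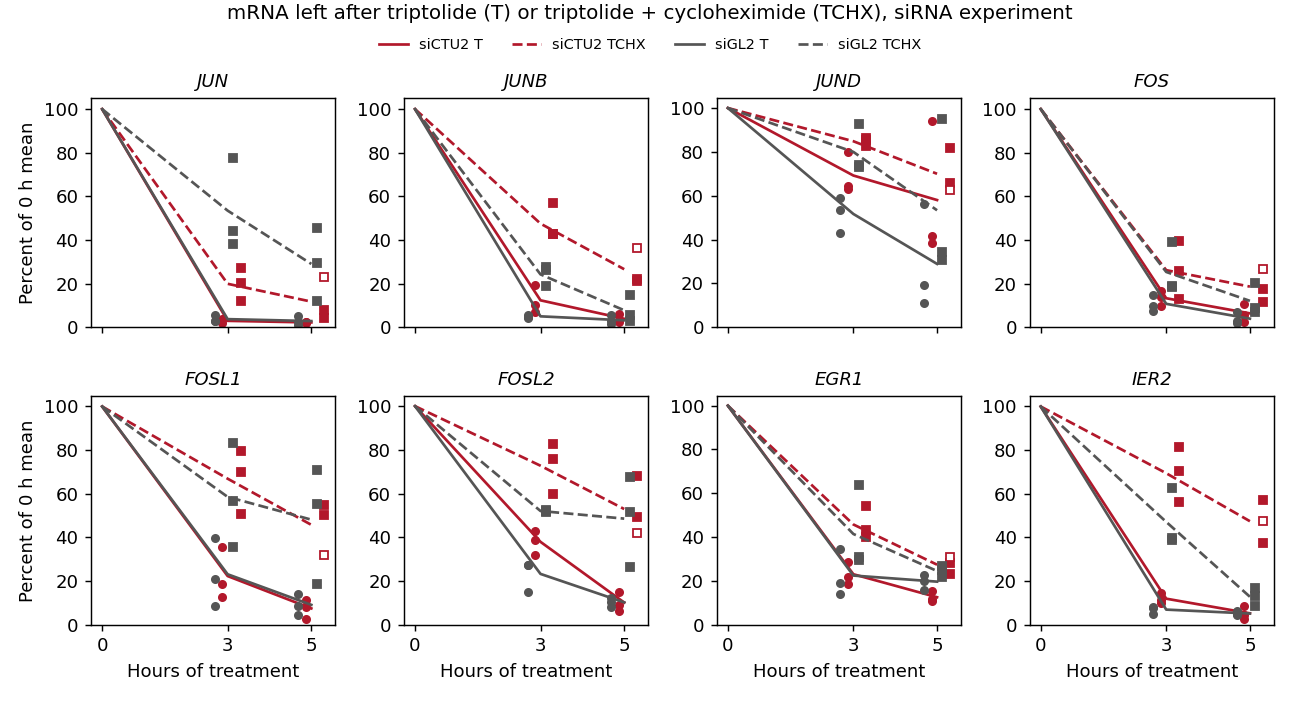
Percent of the mean 0 h level left at 3 h and 5 h in siCTU2 and siGL2, in the T arm (circles, solid lines) and the TCHX arm (squares, dashed lines), with a point per library (n = 3), lines through the means from 100% at 0 h, and an open symbol for the library that stood apart. JUN falls to 1.84% to 5.58% at 3 h in the T arm in both conditions, and with cycloheximide to 12% to 27.3% in siCTU2 and 38.3% to 77.7% in siGL2.

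At 5 h in the T arm, 8 of 8 genes were lower than at 0 h in siCTU2 and 8 in siGL2, against 63.4% and 47.4% of all genes tested. In mQ and pQ 7 of 8 were lower, against 43.8% and 51.8%. JUND missed the threshold in siCTU2 without replicate 1 or 2 (adjusted p = 0.15 and 0.16), and in siGL2 likewise (adjusted p = 0.12 and 0.081). JUN had 1.75%, 2.39% and 2.39% left in siCTU2 and 1.01%, 5.23% and 2.18% in siGL2. In pQ, JUN had 0 counts in replicate 3, which counting error alone allows for up to 3, and 1.76% and 2.66% was left in the others. In pQ the exception was JUND, with 23.6%, 36.2% and 95.4% left (log2 change -0.96, SE 0.41, adjusted p = 0.057).

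The exception in mQ was JUN. It had 3.31% and 0.626% left in replicates 1 and 2, and 81.8% in replicate 3, which is 1 of the libraries that stood apart. The log2 change was -1.76 (SE 0.87, adjusted p = 0.11), and -5.70 (adjusted p = 1.2e-06) without the libraries that stood apart. JUNB, FOSL1, FOSL2, EGR1 and IER2 were also highest there, at 48.4%, 38.5%, 77.4%, 19.2% and 34.3% against 0.626% to 9.93% over JUN and these 5 genes in the other 2 replicates. Without those libraries, 8 of 8 genes were lower in mQ at 5 h, while without replicate 1 or 2, which keeps that library, 2 and 0 were. The share of 43.8% of all genes tested belongs to the fit with all libraries. No share is given for these smaller fits, so their counts have no background beside them.

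Replicate 3 also differed at 5 h in other groups. Over genes with a mean of at least 10 CPM, its Pearson r with replicates 1 and 2 was 0.876 to 0.942 in the 8 groups at 5 h. Between replicates 1 and 2 it was 0.965 to 0.990 there. The lowest value was in the mQ TCHX group, whose library was not among those that stood apart. Fits without the libraries that stood apart still hold the other replicate 3 libraries at 5 h. JUND was highest in replicate 3 in 7 of the 8 groups at 5 h, and FOSL1 was lowest there in 7 of 8. JUND had 94.3% left in siCTU2 replicate 3 against 38.3% and 41.5% in the others, and 56.1% against 19.5% and 11% in siGL2. In the mQ TCHX group, JUND stood at 53.6%, 65.4% and 215% of the 0 h level. The median expressed gene moved as well, with 34.7% left in siCTU2 T replicate 3 against 58.8% and 64.4%, and 45.0% in siGL2 against 67.6% and 68.1%. The part of these library differences in the results at 5 h was not tested.

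**Figure D3:**
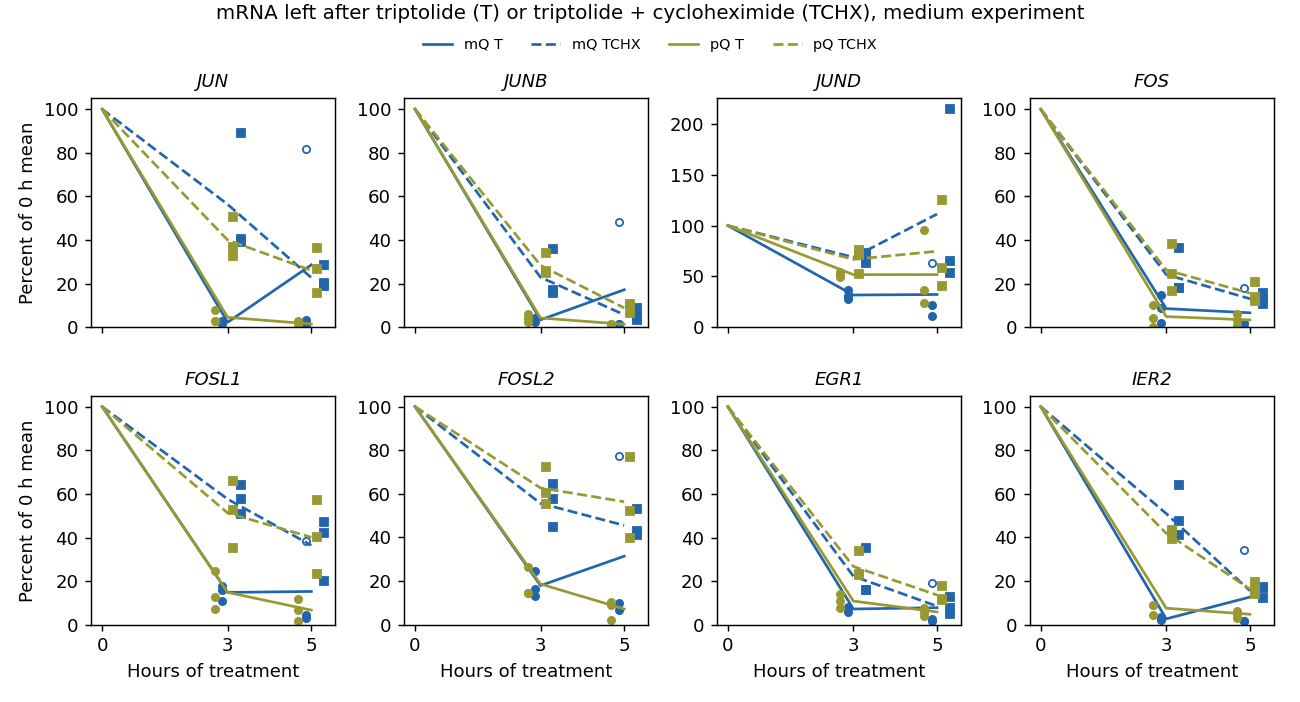
Percent of the mean 0 h level left at 3 h and 5 h in mQ and pQ, drawn as in the plot for the siRNA experiment, where the open circle is mQ T 5 h replicate 3. That library lies at 81.8% for JUN and 77.4% for FOSL2, and the other mQ libraries of the T arm at 5 h lie at 3.31% or less for JUN and 9.93% or less for FOSL2.

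After 3 h in the TCHX arm, 3 of 8 were lower than at 0 h in siCTU2, 5 in siGL2, 3 in mQ and 5 in pQ, against 3.04%, 18.3%, 36.1% and 40.5% of all genes tested. These counts rested on single replicates and on the scaling: without replicate 1 they were 0 in each condition, without replicate 2 they were 0, 3, 0 and 1, and without replicate 3 the count was 8 in mQ, as in the T arm. With genes stable at both times they were 8 in siCTU2 and pQ, where the T arm with the main scaling had 7 in each. With TMM scaling they were 2, 1, 0 and 2. No share of all genes tested is given beside these recomputed counts. Whether they moved with the whole table can therefore not be read from them. With all libraries, FOS and EGR1 were lower in all 4 conditions. FOSL1 and JUND were called in none, and neither was FOSL2 in siCTU2, mQ or pQ. At 5 h in the TCHX arm, 7 of 8 were lower in siCTU2, and 6 each in siGL2, mQ and pQ, against 22.6%, 46.9%, 53.7% and 33.4% of all genes tested.

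At 3 h in this arm, the mean share left differed between the siRNA conditions by more in JUN than in any other of the 8 genes. In siGL2, 44.3%, 77.7% and 38.3% of JUN was left after 3 h with cycloheximide, and in siCTU2 20.4%, 27.3% and 12%, without overlap. The log2 change from 0 h was -0.90 (SE 0.42, adjusted p = 0.12) in siGL2 and -2.33 (SE 0.43, adjusted p = 0.0065) in siCTU2. In normalised counts, JUN went from 260, 432 and 283 to 144, 253 and 125 in siGL2 and from 1082, 1093 and 779 to 201, 268 and 118 in siCTU2. The normalised counts thus overlapped between the conditions at 3 h, having been apart at 0 h. Whether the change from 0 h in the TCHX arm differed between siCTU2 and siGL2 was not tested, for JUN or any other gene.

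For IER2 and JUNB the order was the opposite, and it was not tested either. IER2 had 70.3%, 81.6% and 56.3% left at 3 h with cycloheximide in siCTU2 and 38.8%, 62.8% and 39.8% in siGL2, with 1 siGL2 value inside the siCTU2 range. At 5 h it had 37.5%, 57.2% and 47.6% left in siCTU2 and 13.3%, 16.7% and 8.41% in siGL2, without overlap, where 47.6% is from a library that stood apart. JUNB had 42.7%, 56.9% and 42.8% left at 3 h in siCTU2 and 26.1%, 27.8% and 18.8% in siGL2, without overlap.

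The effect of cycloheximide itself was tested as the TCHX arm minus the T arm, averaged over 3 h and 5 h. On this measure 6 of 8 genes were higher with cycloheximide in siCTU2, 6 in siGL2, 2 in mQ and 7 in pQ, against 21.0%, 12.1%, 5.12% and 12.3% of all genes tested. None was lower in any condition. The median log2 difference of the 8 genes was 1.95, 1.71, 1.39 and 2.15, against 0.22, 0.05, 0.05 and 0.06 over all genes tested. At 0 h no difference between the arms was called: edgeR passed 0 genes in all 4 conditions (0.0% of those tested), while 160, 96, 311 and 287 genes had unadjusted p-values under 0.05.

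JUN had the largest effect among the 8 genes in siGL2, at 3.64 (SE 0.38, adjusted p = 3.7e-06), and in pQ, at 3.72 (SE 0.34, adjusted p = 5.4e-07). In siCTU2 it was 2.53 (SE 0.34, adjusted p = 2.8e-05), below that of IER2, at 2.82 (SE 0.21, adjusted p = 5e-08). In mQ the JUN effect was 2.17 (SE 0.69, adjusted p = 0.080), and 4.13 (adjusted p = 6.6e-07) without the libraries that stood apart. IER2 was called in all 4 conditions, with 2.07 (SE 0.19) in siGL2, 2.16 (SE 0.51) in mQ and 2.18 (SE 0.19) in pQ, at adjusted p of 8.1e-07, 0.022 and 3.5e-07. The mQ value missed the threshold without replicate 1 or 2 (adjusted p = 0.35 and 0.52).

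FOSL1 was also called in all 4 conditions, at 1.99 in siCTU2, 1.90 in siGL2, 1.70 in mQ and 2.12 in pQ, with adjusted p between 4.1e-05 and 0.031. It missed the threshold without replicate 1 in siGL2 (adjusted p = 0.15), mQ (0.43) and pQ (0.057), without replicate 2 in mQ (0.55), and at 3 h alone in siGL2 (0.23), mQ (0.11) and pQ (0.063). FOSL2 was called in siCTU2, siGL2 and pQ, at 1.91, 1.95 and 2.42. JUNB was called in the same conditions, at 2.26, 1.51 and 2.56, and the siGL2 value became 0.92 (adjusted p = 0.12) without replicate 2. EGR1 had smaller effects, at 0.89 (adjusted p = 0.00014) in siCTU2 and 1.19 (adjusted p = 0.00053) in pQ, and was not called in siGL2, at 0.67 (adjusted p = 0.10). FOS was called in siGL2, at 1.51 (adjusted p = 0.0091), and in pQ, at 2.12 (adjusted p = 0.017), but not in siCTU2, at 0.56 (adjusted p = 0.30). Without replicate 1 or 2, FOS missed the threshold in siGL2 (adjusted p = 0.11 and 0.088) and in pQ (adjusted p = 0.12 and 0.17), and at 3 h alone in both (adjusted p = 0.18 and 0.17). JUND was called in none, with 0.47 to 1.19 and adjusted p from 0.058 to 0.41. Without the libraries that stood apart, 8 of 8 genes were called in mQ. The share of 5.12% of all genes tested belongs to the fit with all libraries. No share is given for the smaller fit, so this count has no background beside it.

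**Figure D4:**
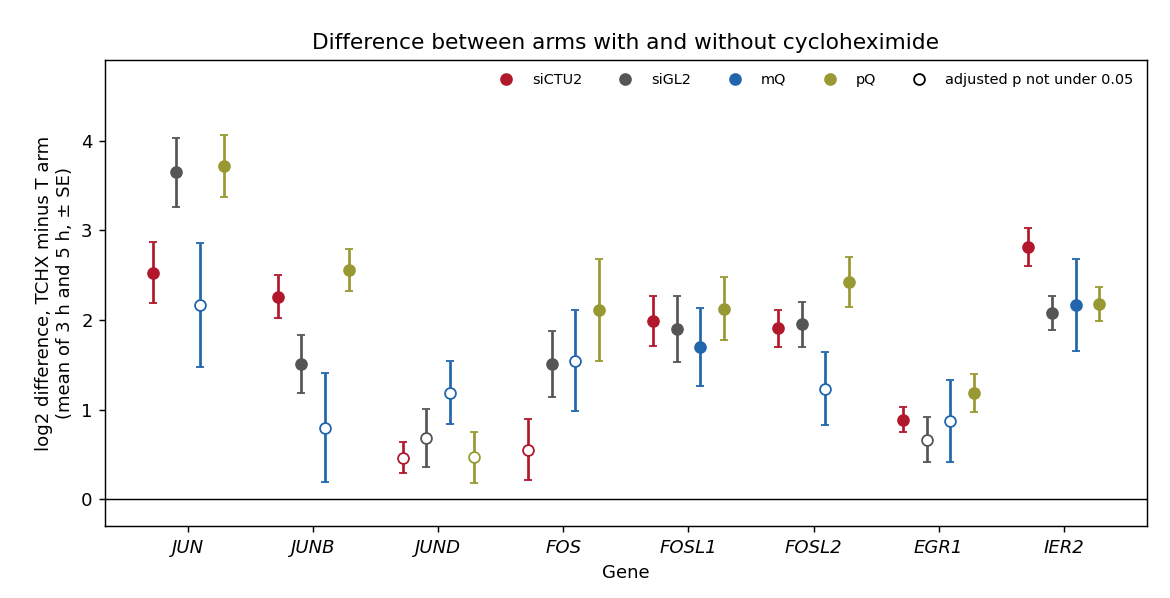
Log2 difference between the TCHX and T arms, averaged over 3 h and 5 h, for the 8 genes in the 4 conditions, with bars for the standard error and open circles where the edgeR adjusted p was not under 0.05. JUN ranges from 2.17 in mQ to 3.72 in pQ, and JUND from 0.47 to 1.19 with open circles only.

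The other immediate early genes were called in one direction only. Of those tested, 13 of 19 were higher with cycloheximide in siCTU2, 12 of 18 in siGL2, 5 of 19 in mQ and 13 of 19 in pQ, and none was lower, against 21.0%, 12.1%, 5.12% and 12.3% of all genes tested that were higher. Their median log2 differences were 1.71, 1.42, 1.09 and 1.98. PHLDA1, a pleckstrin homology-like domain gene, was at 2.63, 2.54, 2.31 and 2.75 in these conditions. CSRNP1, a nuclear protein gene induced by AXIN1, reached 4.97 in siGL2 and 5.79 in pQ. Among the other AP-1 and small MAF subunits, 5 of 11, 2 of 10, 4 of 11 and 4 of 10 were higher, and ATF3 and MAFK in all 4 conditions. Of the AP-1 target genes, 1 of 16, 1 of 16, 1 of 15 and 2 of 15 were higher, with medians of 0.07, -0.03, -0.05 and 0.19. Of 8 AU-rich element binders, which recruit decay enzymes to such mRNAs or shield them, 2 were higher in each condition, ZFP36L1 and ZFP36L2.

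An interaction term over both conditions of an experiment tested whether they differed in the cycloheximide effect. Between siCTU2 and siGL2, 54 of 14259 genes passed (0.379%), and none of the 8 did. JUN had the largest negative difference, at -1.12 (SE 0.54, adjusted p = 0.53), and IER2 and JUNB were at 0.74 (SE 0.28, adjusted p = 0.33) and 0.75 (SE 0.42, adjusted p = 0.63). Between mQ and pQ, edgeR called 0 of 14177 genes (0.0%), with 525 at an unadjusted p under 0.05, and DESeq2 called 2. The 8 genes ran from -1.76 for JUNB (SE 0.73) to 0.72 for JUND (SE 0.48), all with an adjusted p of 1. Without the libraries that stood apart, IER2 was at 1.37 (adjusted p = 0.021), on the other side of its value of -0.01 with them (SE 0.54).

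For the change over 3 h in the T arm, edgeR called no difference between conditions in any gene. Between siCTU2 and siGL2 0 genes were called (0.0%), with 414 at an unadjusted p under 0.05 and 8 called by DESeq2. Between mQ and pQ 0 genes were called (0.0%), with 356 at an unadjusted p under 0.05 and 2 called by DESeq2. Among the 8 genes, JUNB had the largest difference between siCTU2 and siGL2, at 1.30 (SE 0.55), and IER2 between mQ and pQ, at -1.48 (SE 0.82), both with an adjusted p of 1.

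A translation-dependent decay (TDD) index after the formula of the study was computed for each replicate. Taking the mean of both arms as the 0 h level was a choice made here. The normalised count of the T arm was subtracted from that of the TCHX arm of equal time, and the result was divided by the mean 0 h count of both arms. It is the extra share of the starting mRNA that was left when translation was blocked, over the share left without the block. At 3 h, JUN had an index of 0.16, 0.21 and 0.11 in siCTU2 and of 0.51, 0.55 and 0.43 in siGL2, without overlap. JUNB had 0.34, 0.35 and 0.31 in siCTU2 against 0.18, 0.19 and 0.12 in siGL2, also without overlap. IER2 had 0.59, 0.61 and 0.49 against 0.39, 0.51 and 0.32, which overlap.

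Over 3 h and 5 h together, limma put the siCTU2 minus siGL2 difference in index at -0.25 (SE 0.07) for JUN, 0.25 (SE 0.06) for IER2 and 0.17 (SE 0.06) for JUNB. Their unadjusted limma p-values were 0.0080, 0.0029 and 0.012, and the adjusted p was 0.57 for each. The 3 h and 5 h values of a replicate share the 0 h count and were fitted as separate values. The SEs and p-values of the index, here and for mQ and pQ below, may therefore be too small. Over the table, 0 of 12249 genes passed (0.0%), with 968 at an unadjusted p under 0.05. The other 5 genes ran from -0.07 for FOS to 0.07 for FOSL2. At 5 h the library labelled siCTU2 TCHX replicate 3 gave JUN an index of 0.25, against 0.02 and 0.05 in the other replicates, and in siGL2 the values were 0.35, 0.31 and 0.12.

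Between mQ and pQ, 0 of 12371 genes passed for the index by limma (0.0%), with 524 at an unadjusted p under 0.05. At 3 h JUN had 0.62, 0.44 and 0.59 in mQ and 0.28, 0.45 and 0.39 in pQ. FOSL1 had 0.49, 0.55 and 0.36 in mQ against 0.37, 0.34 and 0.34 in pQ. Both overlapped. The difference over both times was -0.01 (SE 0.12) for JUN and 0.03 (SE 0.09) for FOSL1, and JUND had the largest of the 8, at 0.29 (SE 0.14), all with an adjusted p of 1. In mQ replicate 3 at 5 h, where the T arm library stood apart, the index was below 0 for 7 of the 8 genes, JUND being the exception.

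**Figure D5:**
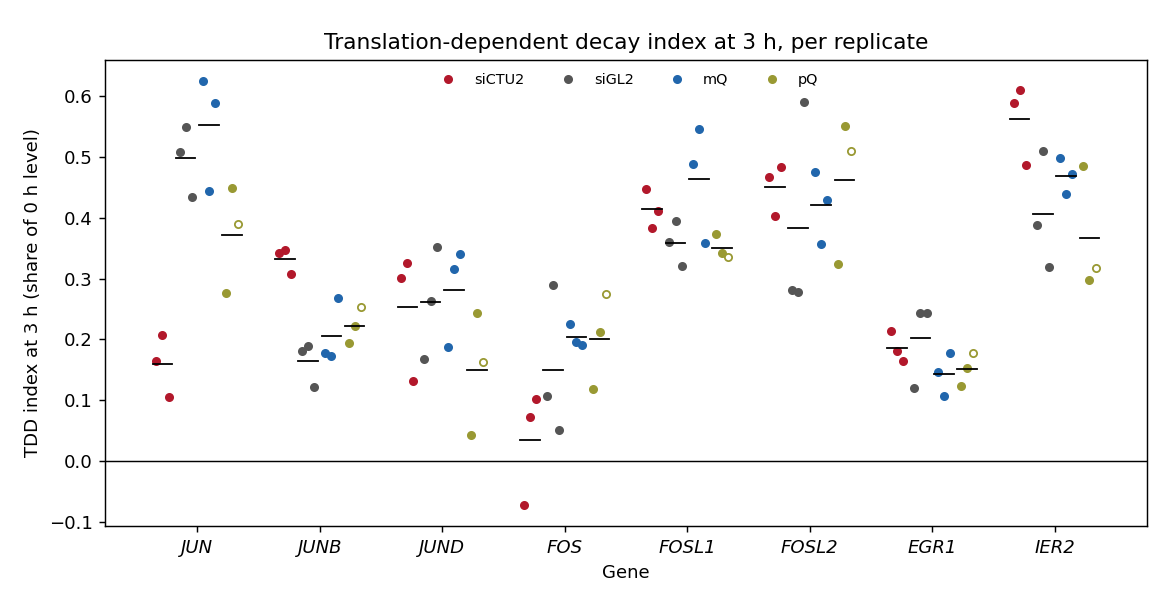
TDD index at 3 h, the share of the 0 h level left with cycloheximide minus that left without it, for the 8 genes in the 4 conditions, with a point per replicate (n = 3), a line at the mean and an open symbol where a library that stood apart enters the 0 h level. JUN points of siCTU2 lie at 0.11 to 0.21 and those of siGL2 at 0.43 to 0.55.

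Across the 24 group means, the genes most like JUN in log2(CPM + 1) were EPC1, a chromatin complex subunit gene (Pearson r = 0.958), C1orf74 (0.953) and MED26, a Mediator subunit gene (0.953), among 8495 genes at or above 10 CPM. For JUNB they were TBCC (0.986), IER5, another immediate early gene (0.976), and NFKBIA, which encodes an inhibitor of NF-kB (0.972). IER2 was most like DUSP6, which encodes an ERK phosphatase (0.974), FOSL1 like OSER1 (0.979), FOSL2 like PLK2 (0.968), EGR1 like FAM43A (0.951) and JUND like TMEM223 (0.959). The group means share libraries and the same course of loss after triptolide, so these values describe likeness over 24 points only. FOS and IER3 lay under the 10 CPM minimum.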

How the data were processed

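The authors deposited raw counts per gene. By the study's methods and the submitters' processing notes, reads were trimmed with fastp 0.20.1, mapped to GRCh38.p13 with HISAT2 2.2.1 and counted over exons with HTSeq 0.13.5. Whether counting used strand is not given in the sources used here. No molecular identifiers were stated, so counting error is the least error a value can have.

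All further values were computed from these deposited counts. Groups and replicate numbers came from sample titles, and 0 columns were left unmatched. Column names of the deposited counts share a prefix per replicate number in every group, and no label says what this prefix marks. The 9 genes and the other gene lists were chosen with earlier results of these data known. All 9 genes are named in every comparison, and from each other list up to 4 genes with the smallest adjusted p.

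At 0 h, conditions were compared with edgeR 4.0.16 (filterByExpr, TMM, quasi-likelihood test, R 4.3.3). Other fits used size factors from stable genes, after the study's methods: a CPM above 0.2 at 0 h a rise of at least 1.1 times at 3 h or 5 h and a 0 h CPM above 0.1 times the later one, in both arms, every replicate and both conditions (197 usable genes in the siRNA experiment, 81 in the medium experiment, with 0 of the 9 genes among them). Each condition was fitted on its 18 libraries. The translation-dependent decay index was tested with limma 3.58.1 (condition, time and replicate as terms, mean normalised 0 h count of at least 10), and values at 3 h and 5 h share a denominator. P-values were adjusted by the Benjamini-Hochberg method over all genes tested, at a threshold of 0.05. The likeness measure was fixed by rule as the 3 genes with the highest correlation.

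Alternatives were DESeq2 1.42.0, TMM, stricter stable genes, no low-count filter, a replicate term, other 0 h references and leaving out libraries. Code was tested on simulated data. In siCTU2 and siGL2 at 0 h in the T arm, libraries with the same replicate number deviated together from their group means, with r between 0.10 and 0.30 in all 3 pairs. The numbers may therefore pair these samples. The main edgeR tests had no replicate term, so their p-values are unpaired, and the replicate term was an alternative only. Loci and 3′ UTRs came from GENCODE v44 and promoters from RefSeq GRCh38.p14. Spike-ins were not used here.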

Additional observations from a re-analysis of the deposited data

Results flagged for a closer look

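JUNB at 5 h was singled out because all TCHX libraries of mQ lay below the mean of the mQ T arm libraries, while all TCHX libraries of pQ lay above the mean of the pQ T arm libraries. In mQ, JUNB had 17.7, 49.6 and 28.7 normalised counts with cycloheximide and 6.97, 7.92 and 232 without it. In pQ, it had 42.4, 46.6 and 29.2 with cycloheximide and 7.46, 6.80 and 6.01 without it. The log2 ratio of the arm means in mQ minus that in pQ was -3.90, and this difference at 5 h was not tested. The value of 232 belongs to mQ T 5 h replicate 3, a library that stood apart, and in the other mQ libraries of the T arm JUNB was below all TCHX libraries. Over the 8 genes, 112 such contrasts were looked at, and JUNB was the only case.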

How the results depend on the processing

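Of 234 recomputed counts of genes called, 197 stayed within 1.5 times the reported count and 37 did not. Of 1864 recomputed log2 or index differences, 1596 kept direction and side of the threshold, 96 lost the call, 104 gained it and 68 changed sign. The cause was not tested for any of these. For most of the recomputed counts, here and above, no share of all genes tested is given. Whether they moved with the whole table can therefore not be read from them.

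With TMM scaling, the number of genes lower at 3 h in the TCHX arm was 1 in siGL2, 0 in mQ and 2 in pQ, the number lower at 5 h in the T arm of mQ was 4, and the number higher with cycloheximide in mQ was 5. With genes stable at both times (8 and 3 genes), 8 genes were lower at 3 h in the TCHX arm of siCTU2 and 8 in pQ, and 5 were higher with cycloheximide in mQ. With DESeq2, 1 gene was lower at 3 h in the TCHX arm of mQ and 5 were higher with cycloheximide there. With no filter on low counts, 5 were lower at 3 h in the TCHX arm of mQ, 8 were higher with cycloheximide in mQ, and between mQ and pQ 2 differed in the cycloheximide effect and 1 in the 3 h change of the T arm. With the 0 h difference between arms subtracted, 3 genes were higher with cycloheximide in siGL2 and 0 in mQ, and with 3 h alone 1 was in mQ. Without the libraries that stood apart, 6 were lower at 3 h in the TCHX arm of mQ, 8 were higher with cycloheximide in mQ, and 1, IER2, differed in the cycloheximide effect between mQ and pQ.

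With replicate number as a block, 7 genes were called between siCTU2 and siGL2 at 0 h as without it, and 5101 genes in all against 4429. In the medium experiment, 1 of 3 pairs at 0 h had a correlation over 0.1, so by the rule that every pair must the numbers were not taken as pairs. Over all its groups, 151 of 198 pairs with the same number did, with a median r of 0.22 against -0.11 for other numbers, and 33 of 45 pairs within mQ. This is a hint from the data that the numbers pair these samples too. The prefix shared by column names of the same number goes with it, but no label says what it marks. The unpaired tests of the medium experiment may therefore leave out a pairing. The block gave 2 genes at 0 h between mQ and pQ (FOSL1 lost its call), 6 genes higher with cycloheximide in mQ, 8 lower at 5 h in the T arm of mQ, and 7 genes lower at 3 h in both arms of siGL2. Under the block, the 0 h differences between mQ and pQ of JUN and JUNB were -0.033 and -0.035, and the IER2 difference in cycloheximide effect was 0.13.

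Leaving out 1 replicate at a time, the number lower at 3 h in the TCHX arm ran from 0 to 3 in siCTU2, 0 to 7 in siGL2, 0 to 8 in mQ and 0 to 7 in pQ. The number lower at 5 h in the T arm of mQ ran from 0 to 8, and the number higher with cycloheximide in mQ from 0 to 8. The number with a different cycloheximide effect between mQ and pQ ran from 0 to 2, and with a different 3 h change from 0 to 1.

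The other sign changes were in differences not called in the main analysis, apart from JUND at 5 h in siCTU2. Between mQ and pQ at 0 h, the TCHX arm gave -0.14 for JUN, -0.15 with pQ replicate 3 left out, -0.090 for JUND and 0.11 for FOS. With TMM, JUND moved to 0.019 at 3 h and 0.26 at 5 h in the T arm of siCTU2, and at 3 h in the TCHX arm to 0.080 in siCTU2, 0.14 in siGL2 and 0.069 in mQ. For the difference in cycloheximide effect between siCTU2 and siGL2, 3 h alone gave -0.14 for JUNB, -0.13 for EGR1 and -0.29 for IER2, TMM gave -0.00058 for FOSL1, and FOSL2 was at 0.057 with genes stable at both times and 0.030 without the libraries that stood apart. The 3 h difference of FOSL1 was 0.019 with TMM and 0.13 with genes stable at both times. The index difference of FOS was 0.0067 with each arm over its own 0 h level, and with TMM that of FOSL1 was -0.019 and that of EGR1 -0.0052. For the difference in cycloheximide effect between mQ and pQ, 3 h alone gave 1.38 for JUN, 0.40 for JUNB, 0.32 for FOSL1, 0.41 for EGR1 and 1.60 for IER2, and leaving out the libraries that stood apart gave 0.42 for JUN, 0.78 for FOS, 0.62 for FOSL1, 0.65 for EGR1 and 1.37 for IER2. With genes stable at both times EGR1 was at 0.13 and IER2 at 0.43, and IER2 was at 0.15 with the 0 h difference subtracted and 0.081 with TMM. The 3 h difference between mQ and pQ was -0.22 for FOSL1 with genes stable at both times and 0.030 for FOSL2 with TMM, and the index difference of FOSL1 was -0.0063 with each arm over its own 0 h level.

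Without single replicates, the 0 h difference between mQ and pQ ran from -0.32 to 0.27 for JUN, -0.32 to 0.21 for JUNB and -0.19 to 0.12 for FOSL2. Between siCTU2 and siGL2, the difference in cycloheximide effect ran from -0.40 to 0.039 for JUND, -0.019 to 0.27 for FOSL1 and -0.12 to 0.11 for FOSL2, the 3 h difference from -0.16 to 0.11 for FOSL1 and -0.093 to 0.12 for EGR1, and the index difference from -0.13 to 0.18 for JUND and -0.033 to 0.071 for FOSL1. Between mQ and pQ, the difference in cycloheximide effect ran from -2.18 to 0.46 for JUN, -1.54 to 1.27 for FOS, -1.04 to 0.97 for FOSL1, -1.98 to 0.028 for FOSL2, -0.56 to 0.34 for EGR1 and -0.35 to 1.40 for IER2, and the 3 h difference from -0.17 to 0.33 for FOSL1 and -0.48 to 0.72 for FOSL2. The index difference ran from -0.13 to 0.092 for JUN, -0.043 to 0.064 for FOS, -0.032 to 0.14 for FOSL1, -0.30 to 0.011 for FOSL2 and -0.017 to 0.049 for IER2.

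Depth limits FOS and JUN most, which had 0 to 26 and 0 to 48 counts in the T arm at 3 h and 5 h outside mQ T 5 h replicate 3, and IER3 could not be tested. Counting error is the least error of any value.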
